A study of Mus musculus with 6 samples.

Results

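DEAD-box and DEAH-box proteins are RNA helicases, enzymes that use ATP to open RNA duplexes and to strip or remodel proteins on RNA, and they are named for the amino acids of a motif that both families share. They act at nearly every step in the life of an RNA, from ribosome assembly and splicing to nuclear export, translation, decay and the recognition of viral RNA. Several DEAH-box members work with a G-patch partner protein, and many DEAD-box members act as clamps that hold RNA. The genes described here were selected on their symbols, Ddx or Dhx followed by a number and at most 1 letter, and on a mean normalised value of at least 10 in both deposited tables. Of 53 such symbols among 55401 genes listed, 50 met the level, and the rule names Dhx35 and Ddx39 as members. Just inside it lay Dhx37, with means of 11.5 and 22.9 in the 4 h and the 8 h table, and Ddx60, with 23.5 and 16.6. Just outside lay Ddx4, the germ cell helicase Vasa, listed at 0 and 0.192, and Ddx25 and Ddx43, both listed at 0 in both tables.

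The cells were immortalised mouse embryonic fibroblasts (iMEF) whose floxed Ash2l alleles had been deleted with Cre-ER and which, as clonal lines, live on a lentiviral human ASH2L fused to FKBP12F36V, a tag that the degrader dTAG-13 sends to the proteasome. The COMPASS-type complexes, which methylate lysine 4 of histone H3, need ASH2L as one of their shared subunits. Nascent RNA was labelled with an ethynyl nucleoside, captured by click chemistry and sequenced from 2 untreated libraries, 2 libraries after 4 h of dTAG-13 and 2 after 8 h. These times are those of the labels. The authors describe a labelling window that begins before and ends after each of them, and a selection of labelled RNA for poly-A tails. The untreated cells carry the same deletion and the same fusion, so time in dTAG-13 is the only difference that the labels name. The labels do not say whether the 2 libraries of a group came from separate cultures. P-values therefore measure the spread between these libraries, which may be technical.

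The deposited tables give each gene a mean over 4 libraries, and whole-number values per library were recovered from these means for 23639 of 23783 genes above 0, all 50 helicase genes among them. The 6 libraries are called A and B (untreated), C and D (4 h) and E and F (8 h), letters that carry no replicate order. The recovered values summed to 10456627 and 7417953 in untreated libraries, 12205044 and 17699526 after 4 h and 24881053 and 17477883 after 8 h. Both treated pairs lay above the untreated one, so the library sum cannot be told apart from the treatment. Values below are divided by library size factors and are called normalised values; they are not corrected for gene length. Of the 8 fibroblast markers, 5 could be recovered, and they summed to 27637 to 29114 in untreated libraries, 28874 to 29660 after 4 h and 28450 to 29637 after 8 h. The 5 leukocyte markers summed to 273 to 302 in untreated libraries, 235 to 244 after 4 h and 257 to 291 after 8 h, and 4 of the 5 epithelial markers summed to between 1013 and 1208 in all libraries. The 4 endothelial markers summed to 8979 to 9557 in untreated libraries, 9732 to 10516 after 4 h and 9877 to 10360 after 8 h, so both treated pairs lay above the untreated one without overlap. As single genes, 2 of these 4 markers lay above and 2 below 0 at 4 h, and 3 above and 1 below at 8 h. The sums therefore do not show a shared rise of the list at 4 h. The part of the markers in the results was not tested. The mouse Ash2l locus, which does not encode the degraded fusion, had values of 921 and 729 in untreated cells, 947 and 1118 in 4 h libraries and 950 and 1219 in 8 h libraries, and it does not check the treatment.

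ASH2L-containing complexes act at CpG-rich promoters, so the promoters of 3 members are printed for genes that the results return to: Dhx35, with the lowest difference at 8 h, Ddx19a, with higher values at both times, and Ddx39b, a paralogue of Ddx39. Each runs from 250 bases before to 50 bases after the start of the gene, is taken from RefSeq on GRCm38.p6, and is written 5′ to 3′ with its CpG pairs in capitals.
Dhx35 (chr2:158794557-158794856, plus strand): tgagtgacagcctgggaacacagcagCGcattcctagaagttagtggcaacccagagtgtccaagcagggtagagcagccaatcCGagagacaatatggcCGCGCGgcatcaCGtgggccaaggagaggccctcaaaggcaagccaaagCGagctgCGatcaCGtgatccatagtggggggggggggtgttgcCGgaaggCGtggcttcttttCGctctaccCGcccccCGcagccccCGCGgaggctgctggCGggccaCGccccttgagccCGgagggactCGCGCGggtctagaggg
Ddx19a (chr8:110997774-110998073, minus strand): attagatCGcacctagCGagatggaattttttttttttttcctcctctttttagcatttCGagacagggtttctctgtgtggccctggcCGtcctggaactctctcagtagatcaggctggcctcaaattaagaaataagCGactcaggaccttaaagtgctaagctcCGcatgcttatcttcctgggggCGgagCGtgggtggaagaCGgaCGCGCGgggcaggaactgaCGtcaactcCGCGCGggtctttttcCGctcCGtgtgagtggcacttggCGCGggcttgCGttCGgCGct
Ddx39b (chr17:35241496-35241795, plus strand): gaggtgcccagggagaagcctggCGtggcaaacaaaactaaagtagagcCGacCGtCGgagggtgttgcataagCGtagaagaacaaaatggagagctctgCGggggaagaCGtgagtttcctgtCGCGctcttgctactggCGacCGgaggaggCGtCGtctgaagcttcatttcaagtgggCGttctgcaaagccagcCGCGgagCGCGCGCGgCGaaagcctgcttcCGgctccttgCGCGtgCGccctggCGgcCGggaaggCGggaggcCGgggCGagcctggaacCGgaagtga
The 3 windows hold 22, 23 and 31 CpG pairs, in that order. A promoter was found for 44 members, with a median of 24 CpG pairs in 300 bases (range 6 to 38), against a median of 21 for 10015 promoters of tested genes. For Ddx6, Ddx11, Ddx23, Ddx39, Dhx38 and Dhx58 no matching entry was found.

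The letters CCGGAAG, the core of an ETS site, were searched on both strands and occur in 18 of the 44 helicase promoters (40.9%), against 18.1% of the 10015. Dhx35 and Ddx39b hold them and Ddx19a does not. The letters TGACGTCA, the palindromic cyclic AMP response element, occur in 5 of the 44, those of Ddx19a, Ddx28, Ddx49, Ddx51 and Dhx36, against 3.31% of the 10015. Genes with higher and lower values at 8 h are thus found on both sides of each motif. TATAAA occurs in 2 of the 44, those of the RNA sensors Ddx58 and Ddx60, against 7.47% of the 10015. These are matches of letters, searched without regard to overlap between motifs, and no binding was measured. The 44 and the 10015 were not chosen alike. They also differed in the ratio of CpG pairs to the number expected from C and G content, with medians of 0.897 and 0.762. The part of either in these shares was not tested.

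The comparisons ask whether nascent RNA of the helicase genes differed after 4 h and after 8 h of dTAG-13, and both use the same untreated pair. In limma with Benjamini-Hochberg adjustment over 14123 genes, 0 of the 50 genes passed an adjusted p of 0.05 at 4 h, at 8 h or between 8 h and 4 h, and the share of all genes passing was 0.0% in each. At an unadjusted p under 0.05 the counts were 2 of 50 at 4 h (4.24% of all genes), 3 of 50 at 8 h (4.92%) and 0 of 50 between the times (4.21%). With voom weights, chosen after seeing the data, the adjusted counts were also 0. The median difference of the 50 genes was +0.02 on the log2 scale at 4 h, with a range of -1.85 to 2.75, against -0.01 for all genes tested. At 8 h it was +0.02, with a range of -1.90 to 2.42, against -0.01. At 8 h 27 genes lay above and 23 below 0, against 6902 above and 7221 below of all genes tested. The differences of the family thus centred on those of the typical gene, and the size factors make every difference one relative to that gene. Values not divided by size factors had a median over all genes that was higher by 0.72 (log2) at 4 h and by 1.23 at 8 h, so that an absolute change cannot be read from these data.

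**Figure D1:**
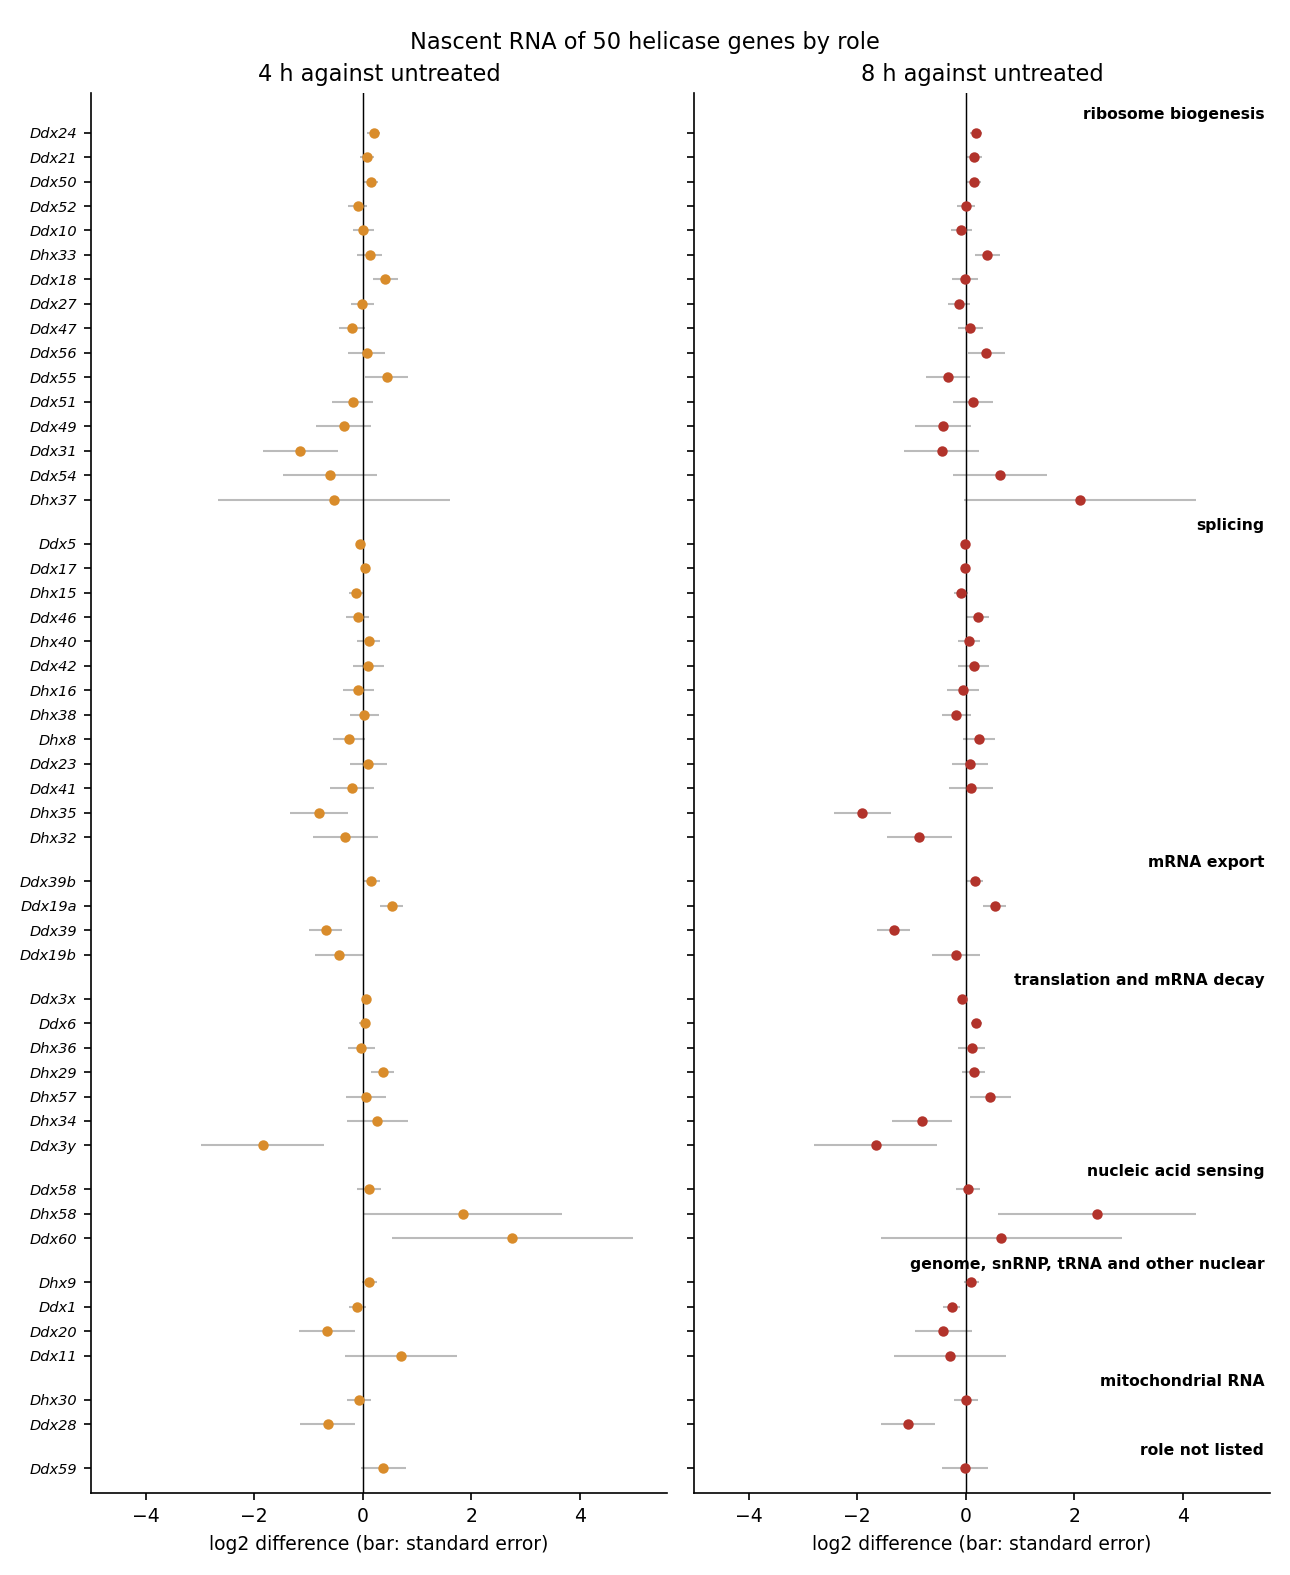
Log2 differences of normalised values of the 50 helicase genes (rows, grouped by role and ordered by level within a role) at 4 h (left) and 8 h (right) against untreated libraries; points are limma estimates from 2 libraries a group and bars 1 standard error. Most genes lie close to 0, Dhx35 and Ddx39 lie left of 0 at both times, and the widest bars belong to Dhx37, Dhx58 and Ddx60.

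Ddx39, also called URH49, is a nuclear DEAD-box helicase of the mRNA export pathway. It had normalised values of 607 and 751 in untreated cells, 461 and 382 in 4 h libraries and 319 and 225 in 8 h libraries. The groups did not overlap, and each later time lay below the earlier one. The difference was -0.69 ± 0.31 (log2, SE) at 4 h, with an unadjusted p of 0.047 and an adjusted p of 0.974 in limma. At 8 h it was -1.33 ± 0.31, or 0.398 of the untreated level with a 95% interval of 0.249 to 0.636. This had the 7th lowest unadjusted p of the 14123 genes (0.00119), and its adjusted p was 0.924 and lay between 0.463 and 0.989 over the alternatives. Between 8 h and 4 h the difference was -0.64 ± 0.31 (unadjusted p = 0.0603, adjusted p = 0.995 in limma). Undivided by size factors, Ddx39 stood at +0.05 at 4 h and -0.08 at 8 h, so its place below 0 is a place below the other genes.

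Ddx39 lies at chr8:83715177-83726892 on the plus strand (GENCODE M21, GRCm38). Its end overlaps, on the other strand, Adgre5, an adhesion receptor gene, and the sources do not say whether the counting used strand, so reads in the overlap cannot be assigned to either gene from these values. Adgre5 had values of 2348 and 1669 at 8 h and 1468 and 2087 in untreated cells, a difference of +0.18 ± 0.21 (log2, SE). In all, 8 helicase genes overlap a protein-coding gene on the other strand, Ddx39 among them, and the same limit holds for each.

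Ddx39b, also called UAP56, is the paralogue that loads the THO/TREX complex on mRNA. Its values were 2455 and 2271 in untreated cells, 2482 and 2800 in 4 h libraries and 2325 and 3040 in 8 h libraries. The 8 h and the untreated libraries overlapped, and the difference at 8 h was +0.17 ± 0.15, with a 95% interval of -0.16 to 0.50 (log2), and -0.022 without library F. The sequences of the pair are close, and reads shared between them would not be told apart by these tables.

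Ddx19a, whose product releases mRNA at the cytoplasmic face of the nuclear pore, had values of 853 and 744 in untreated cells, 976 and 1362 in 4 h libraries and 1077 and 1240 in 8 h libraries. It was named after its values were seen, as the only other member with an unadjusted p under 0.05 in this fit. Both treated groups lay above the untreated one without overlap, and the 2 treated groups overlapped with each other. The difference was +0.53 ± 0.21 (log2, SE) at 4 h (unadjusted p = 0.0288, adjusted p = 0.974 in limma) and +0.54 ± 0.21 at 8 h (unadjusted p = 0.028, adjusted p = 0.924), and without library D the 4 h difference was +0.29. Its neighbour and near copy Ddx19b ranged from 209 to 444 over the 6 libraries with overlapping groups. The 4 export helicases thus comprised 1 gene with higher, 1 with lower and 2 with overlapping values at 8 h.

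Of 16 THO/TREX and export partner genes tested, 0 passed the adjusted p at either time. In limma 3 had an unadjusted p under 0.05 at 4 h (4.24% of all genes) and 1 at 8 h (4.92% of all genes). The median differences of the 16 were -0.04 at 4 h and +0.06 at 8 h (log2). Sarnp, which binds Ddx39b in the TREX complex, had 1406 and 1351 at 8 h against 1643 and 1898 in untreated cells (unadjusted p = 0.0373, adjusted p = 0.924 in limma). The 3 genes at 4 h ran in both directions: Thoc2, a scaffold of the THO complex, had 3815 and 3012 at 4 h against 4247 and 4119 in untreated cells (-0.30 ± 0.12, log2, SE). Thoc7, another THO subunit, had 1892 and 1809 at 4 h against 1346 and 1551 in untreated cells (+0.36 ± 0.16, log2, SE). Gle1, the nuclear pore activator of Ddx19 proteins, had 1025 and 1219 at 4 h against 662 and 817 in untreated cells, and 684 and 981 at 8 h, where the groups overlapped.

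**Figure D2:**
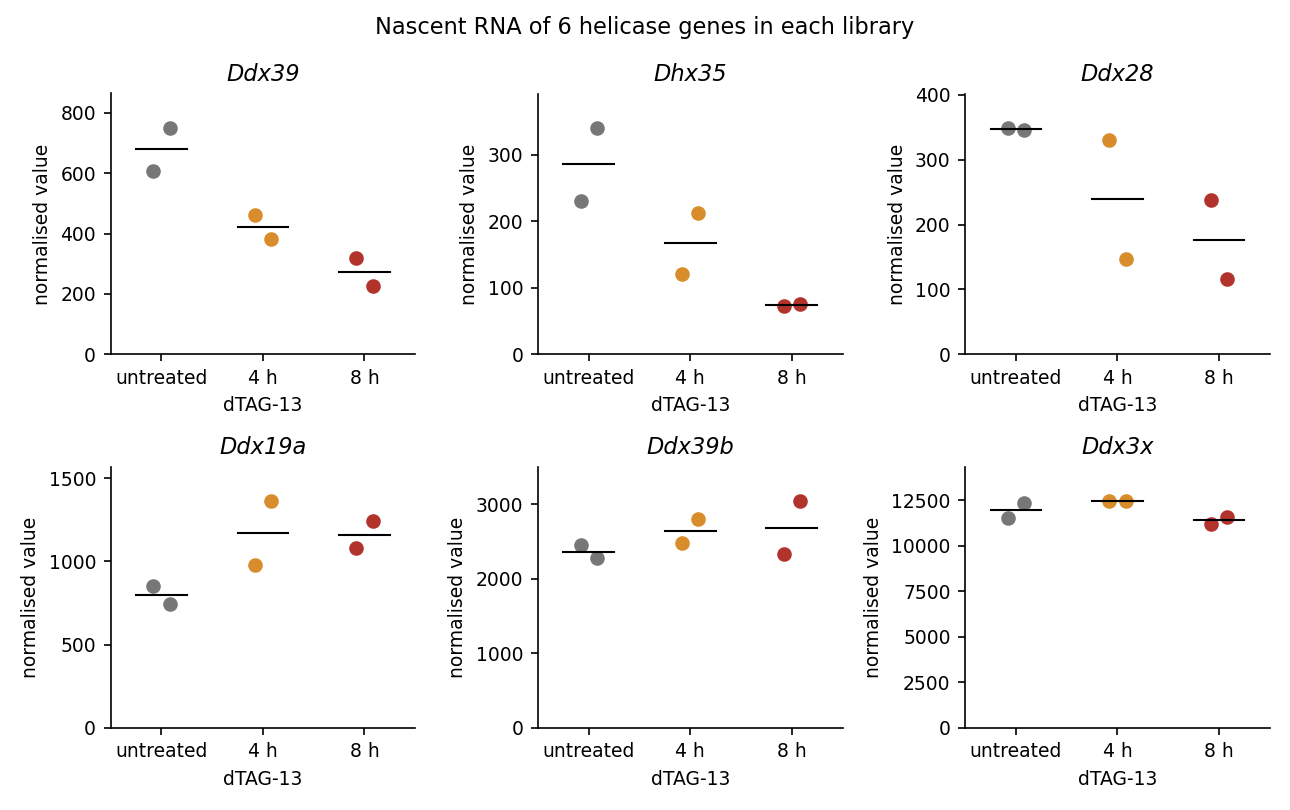
Normalised values (y axis, from 0) of 6 helicase genes in untreated cells and after 4 h and 8 h of dTAG-13; each point is 1 library and each line the mean of 2. Ddx39 and Dhx35 are lower at each later time without overlap, Ddx28 is low in 1 library of each treated pair, Ddx19a is higher at both times, Ddx39b overlaps between 8 h and untreated libraries, and Ddx3x lies between 11173 and 12448 in every library. The values of Ddx3x did not keep a single solution at a wider tolerance of the recovery.

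Among the splicing helicases Dhx35, a DEAH-box protein found in the catalytic spliceosome, had the largest difference. Its values were 231 and 341 in untreated cells, 121 and 213 in 4 h libraries and 73.4 and 75.4 in 8 h libraries. The groups did not overlap at any step, and the 8 h libraries were nearly equal. At 4 h the difference was -0.80 ± 0.53 (log2, SE; unadjusted p = 0.156, adjusted p = 0.974 in limma), and it was -0.40 without library C, -0.52 without B and -1.21 without D. At 8 h it was -1.90 ± 0.53, or 0.267 of the untreated level with a 95% interval of 0.119 to 0.599. The unadjusted p was 0.00417, the 39th lowest of all genes, and the adjusted p was 0.924 and lay between 0.540 and 0.989 over the alternatives. Undivided by size factors the differences were -0.07 and -0.66. The gene spans chr2:158794807-158858214, and no annotated gene overlaps it.

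Dhx35 and Ddx39 were the 2 helicase genes of 50 whose values were lower at each later time without overlap, an order found in 1.1% of all genes tested, and 0 had the opposite order (1.22% of all genes). Both genes were named in the rule with results of these libraries known, so this count is a description. Without overlap at 4 h, 8 of 50 lay higher (15.7% of all genes) and 6 lower (16.6%). At 8 h 6 lay higher (16.4% of all genes) and 9 lower (17.5%). These counts lie near the share in the whole series.

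The other splicing helicases lay nearer to 0. Ddx5, a co-regulator of transcription and splicing and the member with the highest value, had 12044 and 13115 in untreated cells, 12055 and 12074 in 4 h libraries and 12198 and 12744 in 8 h libraries. The groups overlapped, and the 95% interval at 8 h was -0.17 to 0.14 (log2). Its paralogue Ddx17 ranged from 7373 to 8121 over the 6 libraries. Dhx15, Dhx8, Dhx16 and Dhx38, which drive the late rearrangements and disassembly of the spliceosome, had differences of -0.09, +0.25, -0.05 and -0.18 at 8 h. Dhx32, at the lower end of this list by level, had 163 and 196 in untreated cells, 208 and 97.9 in 4 h libraries and 69.0 and 140 in 8 h libraries, a difference of -0.86 ± 0.60 (log2, SE) at 8 h that was -0.35 without library E and -1.36 without F. Dhx32 overlaps Bccip and Fank1 on the other strand, and the share of their reads in its value was not tested. The remaining 5, Ddx23, Ddx41, Ddx42, Ddx46 and Dhx40, had differences between +0.06 and +0.23 at 8 h. Of the 13 genes in the splicing list, Dhx32 among them, 6 lay above 0 at 8 h and 7 below. Over all genes tested 6902 lay above and 7221 below. In the list 0 passed the adjusted p. In 22 genes listed as coding for G-patch proteins, a class that holds partners of several DEAH-box helicases, 0 passed at either time. The median differences of this list, which was not checked against protein sequences, were -0.04 at both. At an unadjusted p under 0.05 in limma the list held 1 of 22 genes at 4 h (4.24% of all genes) and 1 at 8 h (4.92%). This was Gpatch8 at both times. Gpatch8 had 1190 and 1422 at 8 h against 805 and 746 in untreated cells (unadjusted p = 0.00341, adjusted p = 0.924 in limma). It had 964 and 1250 at 4 h, with no overlap of either treated pair with the untreated one.

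The 16 helicases of ribosome biogenesis, which act on precursor rRNA in the nucleolus, had median differences of +0.00 at 4 h and +0.11 at 8 h (log2), and 0 passed the adjusted p. Ddx24, the one with the highest value, had 2867 and 2823 in untreated cells, 3506 and 3041 in 4 h libraries and 3248 and 3238 in 8 h libraries. Both treated pairs lay above the untreated pair, by +0.20 ± 0.12 and +0.19 ± 0.12 (log2, SE; unadjusted p = 0.117 and 0.134), and without library C the 4 h difference was +0.10. Dhx33, which serves rRNA synthesis and translation, had 678 and 884 in untreated cells, 934 and 764 in 4 h libraries and 889 and 1169 in 8 h libraries, and only the 8 h pair stood clear of the untreated one. Ddx31 had 194 and 85.8 in untreated cells, 62.1 and 53.6 in 4 h libraries and 90.0 and 99.8 in 8 h libraries, so that the 4 h pair lay below the untreated pair and the 8 h pair between its 2 libraries. Dhx37, the helicase that frees the U3 snoRNA, had 1.31 and 26.1 in untreated cells, 0 and 28.8 in 4 h libraries and 36.4 and 29.9 in 8 h libraries. Its differences of -0.54 ± 2.14 and +2.10 ± 2.14 rest on 1 low library in each of the 2 earlier groups. The other 12 members of the list had differences at 8 h from -0.42 for Ddx49 to +0.63 for Ddx54 (log2). Ddx21, a nucleolar helicase that also binds RNA polymerase II genes, had 2472 and 2340 in untreated cells, 2364 and 2718 in 4 h libraries and 2929 and 2466 in 8 h libraries, and its 8 h pair overlapped the untreated one. Its paralogue Ddx50 had 2326 and 2192 at 4 h against 2126 and 1969 in untreated cells, which did not overlap, and 2118 and 2444 at 8 h, which did. Ddx18 had 906 and 1076 at 4 h against 679 and 806 in untreated cells, and 877 and 615 at 8 h, on both sides of the untreated pair. Ddx49 had 114 to 150 in the 4 treated libraries, all below its values of 189 and 153 in untreated cells. It overlaps Homer3 on the other strand, and the share of Homer3 reads in its value was not tested.

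In translation and decay, Ddx3x, an X-linked helicase that helps scanning on structured leaders, had 11511 and 12350 in untreated cells, 12444 and 12448 in 4 h libraries and 11173 and 11595 in 8 h libraries. The 4 h pair lay above both other pairs, which overlapped, and the 95% interval of the difference at 8 h was -0.22 to 0.09 (log2). The recovered values of Ddx3x did not keep a single solution at a 10 times wider tolerance. Its Y-linked homologue Ddx3y had 109 and 78.3 in untreated cells, 16.9 and 36.5 in 4 h libraries and 76.7 and 10.2 in 8 h libraries. Both treated pairs lay below the untreated one, but 1 of the 8 h libraries nearly reached it, and the differences were -1.85 ± 1.14 and -1.66 ± 1.14 (log2, SE; unadjusted p = 0.134 and 0.173). Without library F the 8 h difference was -0.27 and without E it was -3.05. Ddx6, a repressor of translation in P-bodies, had 3775 and 4306 in untreated cells, 4060 and 4194 in 4 h libraries and 4673 and 4558 in 8 h libraries, where the difference was +0.19 ± 0.10 (unadjusted p = 0.089) and +0.10 without library A. Dhx34, a nonsense-mediated decay factor, had 163 and 125 in untreated cells, 157 and 189 in 4 h libraries and 67.3 and 97.4 in 8 h libraries. Only its 8 h pair lay below the untreated one, by 0.81 ± 0.55 on the log2 scale (unadjusted p = 0.172). Dhx29, an initiation factor for structured mRNA, had 1002 and 1154 at 4 h against 729 and 953 in untreated cells, and 848 and 1002 at 8 h. Dhx36, which unwinds G-quadruplexes, and Dhx57 had overlapping groups at both times. Of the 7 genes of this group 4 lay above 0 at 8 h and 3 below.

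The RNA sensor Ddx58 (RIG-I) had 1183 and 863 in untreated cells, 1243 and 961 in 4 h libraries and 982 and 1100 in 8 h libraries, with all groups overlapping. Its relatives were near the floor of the assay. Dhx58 (LGP2) had 0 and 70.9 in untreated cells, 37.3 and 23.3 in 4 h libraries and 39.2 and 50.3 in 8 h libraries. Ddx60, an interferon-induced helicase, had 0 and 28.0 in untreated cells, 68.9 and 17.9 in 4 h libraries and 39.2 and 0.786 in 8 h libraries. Both genes have 1 untreated library at 0. The lowest and the highest value of Dhx58 are both untreated, and the groups of Ddx60 overlap, so their differences of up to +2.75 (log2) give no direction.

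Dhx30 and Ddx28 assist the assembly of the mitochondrial ribosome. Dhx30 had 828 and 1128 in untreated cells, 1044 and 809 in 4 h libraries and 882 and 1066 in 8 h libraries, with a difference of +0.00 ± 0.23 (log2, SE) at 8 h. Ddx28, a single-exon gene at chr8:106009621-106011882 on the minus strand, had 350 and 345 in untreated cells, 331 and 148 in 4 h libraries and 237 and 115 in 8 h libraries. Both treated pairs lay below the untreated pair, with differences of -0.65 ± 0.50 and -1.06 ± 0.50 (unadjusted p = 0.224 and 0.0585, adjusted p = 0.974 and 0.924 in limma). At 4 h the difference was -0.07 without library D and -1.23 without C, and at 8 h it was -0.55 without F and -1.58 without E. The gene overlaps Dus2 on the other strand, which had 74.9 and 224 in untreated cells, 315 and 225 in 4 h libraries and 56.3 and 90.3 in 8 h libraries. The Dus2 differences were +1.03 ± 0.64 at 4 h and -0.85 ± 0.64 at 8 h (log2, SE), and the share of its reads in the Ddx28 value was not tested. Among nuclear helicases with other roles, Dhx9, which unwinds structured RNA and DNA, had 1999 and 2353 in untreated cells, 2437 and 2269 in 4 h libraries and 2191 and 2463 in 8 h libraries, where the pairs overlapped. Ddx1, a subunit of the tRNA ligase complex, had 1937 and 1820 in untreated cells, 1925 and 1585 in 4 h libraries and 1489 and 1662 in 8 h libraries. The 8 h pair of Ddx1 stood below the untreated pair by 0.26 ± 0.16 on the log2 scale (unadjusted p = 0.129). Ddx20 (Gemin3), a subunit of the SMN complex that builds snRNPs, had 165 to 327 in the treated libraries and 499 and 192 in untreated cells, so that 1 untreated library lay above and the other among the treated values. Ddx11, a DNA helicase of sister chromatid cohesion that carries the family symbol, ranged from 17.3 to 61.4 over the 6 libraries. Ddx59, in none of the role lists, ranged from 188 to 388, with overlapping groups.

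How far a single library could move a gene depended on its level. The 18 members with a mean normalised value of at least 1000 had a median largest gap between the 2 libraries of a group of 1.20-fold, and 0 of them reached 2-fold. The 25 members between 100 and 1000 had a median gap of 1.43-fold, with 3 over 2-fold. All 7 members under 100 had a gap over 2-fold, with a median of 6.93-fold. The same medians over all genes tested were 1.21-fold, 1.60-fold and 8.46-fold. Ddx39 and Dhx35, with means of 458 and 176, belong to the middle class, and their differences at 8 h were wider than their gaps within a group. Both were named with results of these libraries known, so this is a description and not a test.

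**Figure D3:**
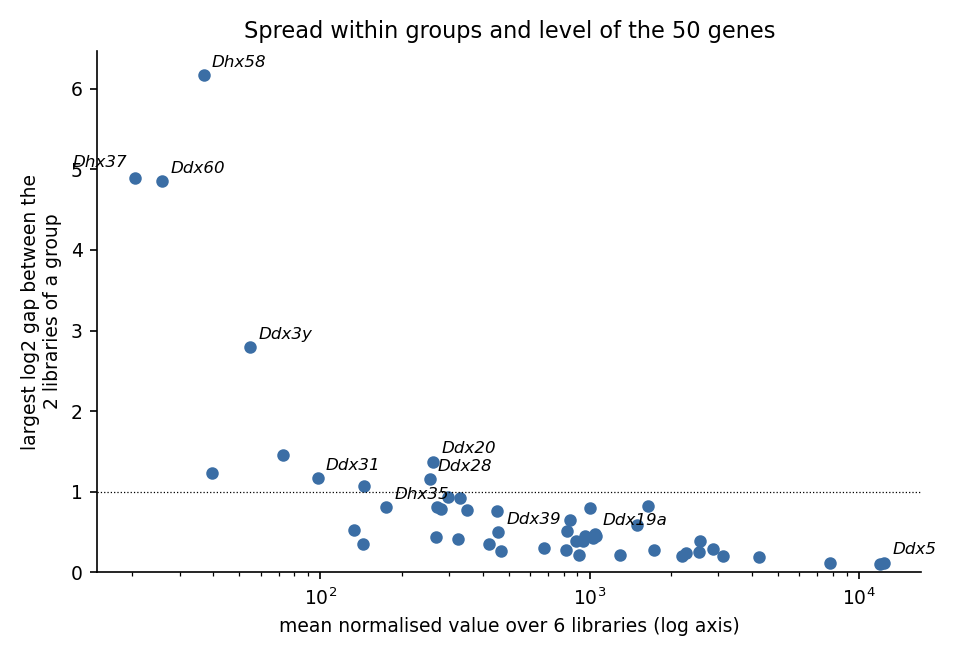
Largest log2 gap between the 2 libraries of any 1 group (y axis) against the mean normalised value over 6 libraries (x axis, log scale) for the 50 helicase genes; the dotted line marks a 2-fold gap. The gap shrinks with level, and Dhx58, Dhx37 and Ddx60 stand above all others.

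Of 20 related helicases outside the symbol pattern, such as the translation factor gene Eif4a1 and the spliceosomal Snrnp200, 0 passed the adjusted p. Their median differences were -0.13 at 4 h and -0.12 at 8 h (log2). At 8 h 13 of 20 lay below 0, against 23 of 50 helicase genes and 7221 of 14123 genes tested. Eif4a1 had 3527 and 3160 at 8 h and 2736 and 2842 in untreated cells (unadjusted p = 0.0489). Znfx1, an RNA helicase of antiviral defence, had 593 and 683 at 8 h and 866 and 1132 in untreated cells (unadjusted p = 0.0139). In both genes the 8 h and the untreated libraries did not overlap. They were the 2 of 20 with an unadjusted p under 0.05 in limma at 8 h, against 4.92% of all genes. Without overlap at 8 h, 4 of the 20 lay higher (16.4% of all genes) and 4 lower (17.5%).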

How the data were processed

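Nascent RNA of 6 libraries (3 groups of 2) was described by 2 tables. Each of the deposited tables holds the authors' mean normalised signal over 4 libraries, with the authors' own fold changes, standard errors, p-values and adjusted p-values, none of which was used. The authors' methods name Trim Galore, STAR, featureCounts, spike-in (ERCC) scaling and DESeq2 with mm10, and the submitters' processing notes also name BWA, SAMtools, MACS2 and deepTools. Labels and methods differ on the library kit (stranded total RNA or 3′ mRNA); versions and strand use are not given in the sources used here.

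Each mean equals a sum of whole numbers times a step per library. As both tables share the untreated pair, the 6 whole numbers were solved from the 2 means at 15 digits by lattice reduction (Python 3.11.15, numba 0.67.0). A single solution was found for 23639 of 23783 genes; 144 genes with means above 12209 were left out. At a 10 times wider tolerance 48 of the 50 helicase genes kept a single solution (not Ddx3x and Ddx5). In 4 libraries (B, D, E and F) between 5 and 36 of the whole numbers 1 to 99 never occur, a trace of scaling before rounding, so the values are not read counts and no count model was fitted. Libraries are known by group but not by replicate number.

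Values were divided by median-of-ratios factors, which differed from the authors' factors by at most 0.0766%. Genes with a mean of at least 10 in both tables (14123) were tested with limma 3.58.1 (R 4.3.3) on log2(value + 1) with a mean-variance trend, 2-sided, all 6 libraries in 1 fit, Benjamini-Hochberg adjusted. Fold changes are on that scale, and those of low genes depend on the value added before the log (the pseudocount). Ddx60 at 4 h had +2.75 (log2) with 1 and +1.68 with 5. Solver and test were tested on simulated data. The members and lists were chosen with earlier results of these data known. Named were Dhx35, Ddx39 and Ddx39b, in each role list the member with the lowest unadjusted p at 8 h and the one with the highest level, and the 5 largest differences at each time. Alternatives were the pseudocount, the filter, the scaling, the libraries in the fit, the tolerance and leaving out each library. Undivided values, voom weights and a robust prior spread were chosen after seeing the data.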

Additional observations from a re-analysis of the deposited data

How the results depend on the processing

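No paired analysis was possible because the recovered libraries carry no replicate number. With another pseudocount, filter, scaling by sums or by the authors' factors, fewer libraries in the fit, a wider tolerance, 1 library left out, voom weights or a robust prior spread, 0 genes passed the adjusted p at 4 h, 8 h or 8 h against 4 h. Table-wise factors gave no value for 8 h against 4 h. Without division by size factors, 6527 genes passed at 8 h, 30 helicase genes among them, and 2 genes passed between 8 h and 4 h; all genes then shift together, as given in the report, so these are not calls relative to other genes. Ddx39 and Dhx35 kept their direction at 8 h under each alternative relative to that shift, and lay between -1.58 and -1.08 and between -2.18 and -1.62 (log2) when 1 library was left out. Single genes were followed over the alternatives only for the named members and for Ddx19a, Dhx32 and Dhx34, so the sign of other members was not followed. Among those followed, uncalled genes crossed 0 otherwise: Ddx58 at 8 h had -0.0106 with voom weights, and Ddx5 at 8 h had 0.0091 undivided. Leaving out 1 library turned the sign of further uncalled differences, whose ranges at 4 h were -0.24 to 0.036 for Ddx1, -0.12 to 0.0035 for Ddx5, -0.11 to 0.34 for Ddx58, -0.061 to 0.13 for Ddx6, -0.30 to 0.15 for Dhx30, -0.86 to 0.22 for Dhx32, -0.066 to 0.32 for Dhx33, -2.93 to 1.92 for Dhx37, -1.24 to 5.11 for Dhx58 and -0.0015 to 0.24 for Dhx9. At 8 h they were -1.03 to 0.14 for Ddx31, -0.022 to 0.36 for Ddx39b, -0.071 to 0.053 for Ddx5, -0.18 to 0.27 for Ddx58, -1.79 to 3.22 for Ddx60, -0.22 to 0.23 for Dhx30, -0.66 to 5.69 for Dhx58 and -0.017 to 0.22 for Dhx9. The cause was not tested. With 2 libraries a group, genes under a normalised value of 100 are too variable for a direction.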
